A study of Mus musculus with 38 samples.

Results

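Peg10, Sgce, Ppp1r9a, Nap1l5 and Herc3 are 5 of the 21938 protein-coding genes of the GENCODE M21 annotation, and they make up 2 imprinted loci of mouse chromosome 6. The 5 genes were taken by name and were selected on the measured difference between IκBα-WT and IκBα-KO cells in called regions of 5 histone modifications, so every WT and KO value of these genes below is a description and carries no test. The window of a gene was its body plus 5 kb on either side. The Peg10 and Sgce windows overlap and the Nap1l5 window lies inside that of Herc3, so that the 5 windows are not 5 independent observations.

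The cells were mouse embryonic stem cells (mESCs) of the ES-E14TG2a line, kept in serum with leukaemia inhibitory factor and collected at 0 h, before any differentiation. IκBα-WT cells (IkappBalpha+/+) were clones that had received scrambled guide RNAs, and IκBα-KO cells (IkappBalpha-/-) were clones edited by CRISPR/Cas9 in Nfkbia, the gene of the NF-κB inhibitor IκBα. Both genotypes thus went through the same editing procedure, and the study's methods speak of 3 biological replicates per genotype and modification. The study's reporting checklist states, under in vivo studies, that every experiment used 3 independent mESC clones per genotype. The study does not say outright that each ChIP library is 1 clone, so the spread between libraries may be partly technical. H3K4me3, H3K27me3, H3K9me3, H3K27ac and H3K4me1 were measured by chromatin immunoprecipitation and sequencing (ChIP-seq), which gave 30 ChIP libraries beside 8 inputs.

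The deposited lists held 8910890 to 10938375 ChIP reads in called regions per H3K27me3 library, 8548342 to 12105343 per H3K9me3 library, 22943091 to 28339766 per H3K27ac library and 34736939 to 35951506 per H3K4me1 library. The H3K4me3 lists held 21836 to 26806 peaks and no counts. Total called length was lower in KO for H3K9me3 (204.6, 207.3 and 201.7 Mb in WT, 185.7, 172.5 and 184.9 Mb in KO). It was higher in KO for H3K27ac (381.6, 380.4 and 392.5 Mb, then 410.6, 419.2 and 415.3 Mb). For H3K27me3 it was also higher (214.1, 258.9 and 258.7 Mb, then 278.2, 276.9 and 266.6 Mb). For H3K4me1 it was slightly lower, and for H3K4me3 the groups overlapped. Called lengths per window were not scaled for these totals. Of 10 promoters of stem cell genes, 9 carried an H3K27ac call in all 6 libraries, against 1 of 4 for fibroblast genes, 2 of 4 for primitive endoderm genes and 3 of 4 for trophectoderm genes. H3K4me3 covered 478, 730 and 703 bp of the Nfkbia promoter in WT and 0, 360 and 585 bp in KO, with overlapping groups, so this promoter did not check the genotype labels. Over the 5 genes, the log2 KO/WT ratio of input reads per kb, centred on all windows of 1 Mb, lay between −0.12 and 0.23 in the 16 pairs of gene and modification with calls in both genotypes, with a median of 0.01. None of these pairs was of Nap1l5, where no modification with counts was called in both genotypes. The highest ratios were those of H3K27me3 calls at Peg10 (0.21) and Sgce (0.23), where the robust SD of the 1 Mb windows was 0.05. The 1 Mb window with both genes stood at 0.03.

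An imprinted gene is transcribed from the copy of 1 parent. Its imprinting control region is methylated on a single parental allele, and at Peg10/Sgce and at Nap1l5 that is the maternal one. ZFP57, a zinc finger protein that binds TGCCGC when its CpG is methylated, brings in TRIM28 and the H3K9 methyltransferase SETDB1, and the methylated allele then carries H3K9me3 while the other carries H3K4me3 in many tissues. Peg10 is a gene derived from a retrotransposon and is needed for the placenta, and Sgce encodes ε-sarcoglycan, a membrane protein. Ppp1r9a, which encodes the actin-binding scaffold neurabin I, lies further along the same cluster. Nap1l5 is a retrogene of the nucleosome assembly protein family that sits in an intron of Herc3, a HECT-domain ubiquitin ligase. In the other marks, H3K27me3 is laid by Polycomb repressive complex 2, H3K27ac marks promoters and enhancers in use, and H3K4me1 marks enhancers whether in use or not.

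Sgce (chr6:4674350-4747207, minus strand) and Peg10 (chr6:4747306-4760517, plus strand) start back to back, with 98 bases between their 5′ ends. Ppp1r9a (chr6:4902917-5165661, plus strand) starts 142.4 kb beyond the Peg10 3′ end. Nap1l5 (chr6:58905233-58907076, minus strand) starts 75.6 kb inside Herc3 (chr6:58831465-58920398, plus strand). These positions are on GRCm38. The sequence just upstream of Nap1l5 is shown because it sits in the stretch where H3K9me3 was called in WT and not in KO libraries. It comes from the RefSeq promoter table (GRCm38.p6), which places the start of the gene somewhat upstream of the GENCODE one, and covers chr6:58907127-58907376 on the minus strand, within Herc3, where the non-coding transcript Herc3-206 also begins. TGCCGC is in capitals.
Nap1l5 upstream: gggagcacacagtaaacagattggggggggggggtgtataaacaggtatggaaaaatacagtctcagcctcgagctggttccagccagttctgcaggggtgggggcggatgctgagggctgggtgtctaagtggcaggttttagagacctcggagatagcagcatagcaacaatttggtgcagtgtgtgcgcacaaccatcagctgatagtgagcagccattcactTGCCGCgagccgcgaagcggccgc

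These 250 bases held 10 CpG dinucleotides and 1 TGCCGC, and the full entry of 300 bases held 17 CpG and 2 TGCCGC, counting both strands. Of the 32851 promoters of 300 bases in the table, 11.6% held TGCCGC at least once on either strand and 1.53% at least 2 times, and 68.6% held fewer CpG than Nap1l5. Herc3 and Ppp1r9a had entries without the motif, and Peg10 and Sgce were not matched. TGCCGC is not its own reverse complement, so no site counts for both strands.

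TGCCGC was then searched in the 2 stretches called for H3K9me3 in 3 of 3 WT and in 0 of 3 KO libraries, which are described below and were picked after their values were seen. The Nap1l5 stretch of 18.4 kb held 7 copies (3.80 per 10 kb) and the Peg10 stretch of 9.2 kb held 3 (3.26 per 10 kb), against 0.591 per 10 kb over chromosome 6. CpG dinucleotides stood at 10.9 per kb in the Nap1l5 stretch, 25.3 per kb in the Peg10 stretch and 7.97 per kb over the chromosome, so CpG content differed alongside the motif count. A match describes the letters and is not a measured binding site. The Peg10 copy at −77 bp, between the Peg10 and Sgce 5′ ends, is not shown. Each of the other copies is given on its own strand with the bases around it, from the GRCm38 genome, and is named by its distance from the gene's 5′ end in the direction of transcription.
Nap1l5 +3815 bp, Herc3 coding exon: gaaagcttggTGCCGCagctgtgcct
Nap1l5 +2397 bp, Herc3 intron: gtattggtctTGCCGCaaggaagatt
Nap1l5 +207 bp, Nap1l5 coding exon: ccggtgacagTGCCGCtgctcccgcg
Nap1l5 +189 bp, Nap1l5 coding exon: gtggcgaagaTGCCGCgaccggtgac
Nap1l5 +74 bp, Nap1l5 exon outside the coding sequence: tgggcttgttTGCCGCagtggtctgg
Nap1l5 −23 bp, Herc3 intron: cgtcagcgttTGCCGCatcttcagac
Nap1l5 −74 bp, Herc3 intron: gccattcactTGCCGCgagccgcgaa
Peg10 +618 bp, Peg10 intron: cactcttaagTGCCGCgctacgaacg
Peg10 +1187 bp, Peg10 intron: cttatgcctgTGCCGCagtttgtagc

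At Nap1l5, H3K9me3 was called across the whole window in WT and nowhere in it in KO, while H3K27me3 and H3K4me1 were called in KO and not in WT. H3K9me3 calls covered 11844 bp, the full window, in each of the 3 WT libraries and 0 bp in each of the 3 KO libraries. The calls that held the gene ran from −12.5 to +9.7 kb of its 5′ end in WT replicate 1, from −12.5 to +10.1 kb in WT replicate 2 and from −8.7 to +10.7 kb in WT replicate 3, with 1590, 1328 and 1276 ChIP reads. They stood 4.60-fold, 4.32-fold and 5.23-fold over the input, so they were strong calls in all 3 WT libraries. The stretch common to the 3 WT libraries was chr6:58897401-58915800, or 18.4 kb. It held the whole of Nap1l5, of which 468 bp are coding, and 15228 bp of Herc3 intron. A list holds only what was called, so 0 bp means that no region passed the caller's threshold and not that no read fell there.

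**Figure D1:**
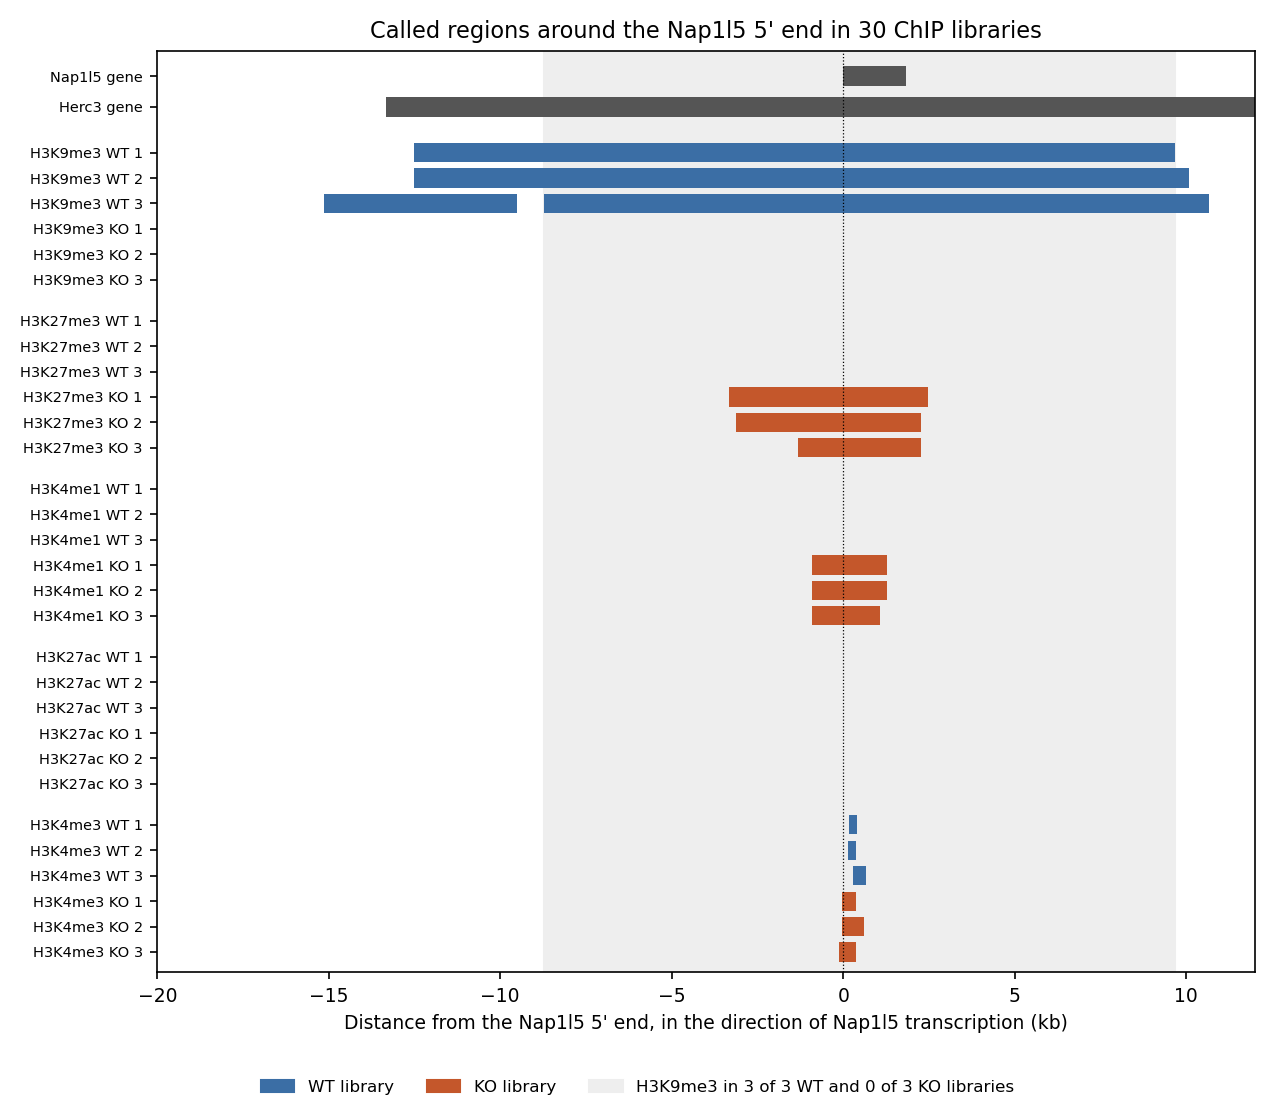
Called regions around the Nap1l5 5′ end, with 1 line per ChIP library (WT blue, KO orange) against the distance from that end in kb; grey bars are the genes and the shaded band is the stretch with H3K9me3 in 3 of 3 WT and 0 of 3 KO libraries. H3K9me3 fills the band in WT, H3K27me3 and H3K4me1 appear near the start of the gene in KO, H3K4me3 is called in all 6 libraries and H3K27ac in none.

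H3K27me3 covered 0 bp of the Nap1l5 window in each WT library and 5800, 5400 and 3600 bp in KO. The KO calls ran from −3.3 to +2.5 kb, from −3.1 to +2.3 kb and from −1.3 to +2.3 kb, held 273, 256 and 205 ChIP reads and stood 2.99-fold, 3.08-fold and 3.12-fold over input. H3K4me1 covered 0 bp in each WT library and 2200, 2200 and 2000 bp in KO, from −0.9 kb to +1.3 kb at most, with 160, 146 and 126 ChIP reads. Both sets of KO calls thus lay inside the stretch that held H3K9me3 in WT and spanned the start of the gene, and they filled only its middle.

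H3K4me3, the mark of active promoters, was the only modification called at Nap1l5 in all 6 libraries. Its peak covered 225, 235 and 364 bp in WT and 422, 636 and 502 bp in KO, and the groups did not overlap. Fold enrichment over input at the peak was 4.57, 4.21 and 4.21 in WT and 6.96, 7.80 and 9.74 in KO. The WT peaks began 0.18, 0.14 and 0.30 kb downstream of the 5′ end, and the KO peaks began at −0.04, −0.03 and −0.12 kb, so only the KO peaks reached across the annotated start. All of these stood below the highest peak of the Herc3 promoter, at 14.003-fold, 16.3-fold and 17.8-fold in WT and 14.9-fold, 16.9-fold and 14.7-fold in KO. H3K27ac was not called in the Nap1l5 window in any library.

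At Herc3, the host gene, the called length moved as at Nap1l5, which its window contains. H3K9me3 covered 22536, 23736 and 25336 bp in WT and 936, 2736 and 936 bp in KO. Nearly all of the WT length lay around Nap1l5, and the KO length came from a call just upstream of the Herc3 5′ end that all 6 libraries shared (chr6:58825401-58829200). Ordered by KO minus WT called length from the most negative, Herc3 stood 10th and Nap1l5 57th of the 12110 gene windows with an H3K9me3 call in any library. The WT stretch also held the 3′ end of Herc3-201, a coding transcript that stops 3.00 kb short of the Nap1l5 5′ end, while the coding transcript Herc3-202 runs through the stretch to the end of the gene. H3K27me3 covered 2200, 3200 and 5600 bp of the Herc3 window in WT and 10600, 8800 and 6600 bp in KO, of which 5800, 5400 and 3600 bp were the Nap1l5 call. At the Herc3 promoter itself an H3K27me3 call was present in all 6 libraries, with 2200, 3200 and 5600 bp in WT and 4800, 3400 and 3000 bp in KO, so the groups overlapped there.

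The active marks of Herc3 did not follow those of Nap1l5. H3K27ac covered 12336, 14936 and 14336 bp of the Herc3 window in WT and 8536, 10336 and 6736 bp in KO, so that all KO libraries lay below all WT libraries. A good part of this came from a region in an early part of the gene (chr6:58837801-58843800) that was called in 3 of 3 WT libraries and in KO replicate 2 alone. With only calls at an FDR under 0.01, the Herc3 groups overlapped for H3K27ac. H3K4me3 covered 1741, 1238 and 1494 bp in WT and 1171, 1736 and 1366 bp in KO, and H3K4me1 covered 14800, 11400 and 15200 bp in WT and 14800, 14600 and 11800 bp in KO. For both of these marks the groups overlapped.

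At the shared Peg10 and Sgce promoter, H3K9me3 over the 5′ ends was called in WT and not in KO, as at Nap1l5, but the active and Polycomb marks were called there in both genotypes. H3K9me3 covered 15095, 14800 and 14695 bp of the Peg10 window in WT and 6000, 5600 and 5600 bp in KO. In the Sgce window the values were 15000, 9800 and 13207 bp in WT and 2800, 6200 and 4000 bp in KO. The stretch called in 3 of 3 WT and 0 of 3 KO libraries was chr6:4742401-4751600, which runs from −4.9 to +4.3 kb of the Peg10 5′ end and over the start of Sgce. It held 4022 bp of Peg10 intron and 4579 bp of Sgce intron, with 273 bp of Peg10 exon and 228 bp of Sgce exon. Among gene windows with an H3K9me3 call, Peg10 stood 119th and Sgce 144th in the same order.

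H3K9me3 further into Peg10 was called in every library. This second block ran from about +5.1 to +11.1 kb of the Peg10 5′ end in WT and from +6.1 to +12.1 kb in KO, with 322, 306 and 238 ChIP reads in WT and 408, 286 and 305 in KO. It made up the whole of the H3K9me3 length left in the Peg10 window in KO. Towards the 3′ end of Sgce a further call (chr6:4690601-4696800) was present in WT replicates 1 and 3 and in all 3 KO libraries. One more Sgce call (chr6:4711001-4713800), with 86 ChIP reads, was found in WT replicate 1 alone. The stretch that separated all WT from all KO libraries thus lay at the shared promoter.

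**Figure D2:**
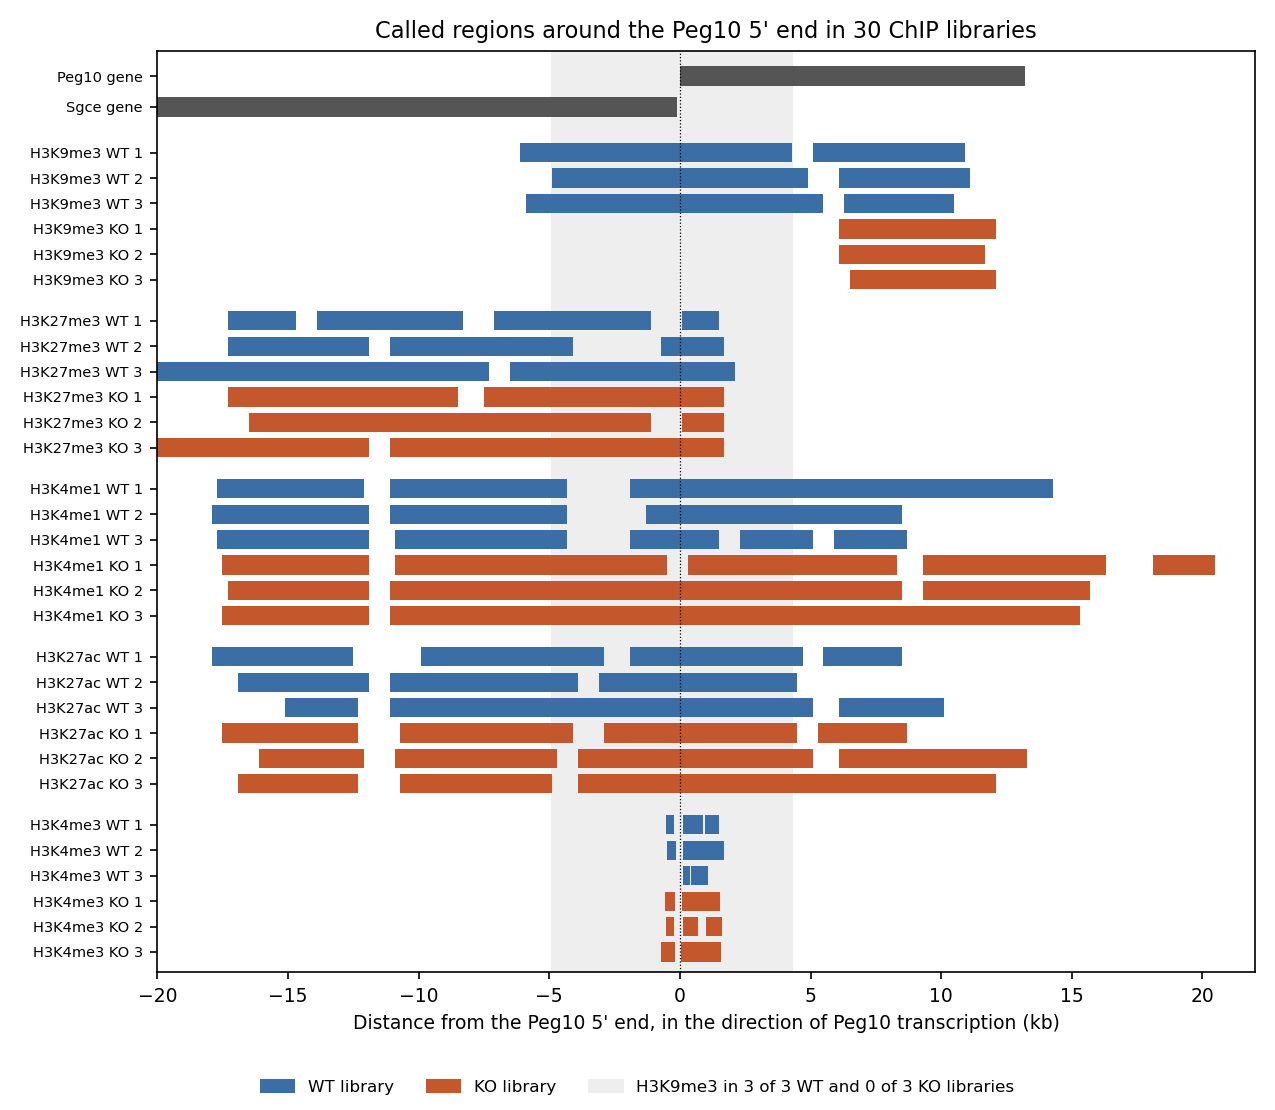
Called regions around the Peg10 5′ end, with 1 line per ChIP library (WT blue, KO orange) against the distance from that end in kb; grey bars are the genes and the shaded band is the stretch with H3K9me3 in 3 of 3 WT and 0 of 3 KO libraries. A second H3K9me3 block inside Peg10 is present in all 6 libraries, and H3K27me3, H3K27ac, H3K4me1 and H3K4me3 are called in the band in both genotypes.

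H3K4me1 was wider over Peg10 in KO. It covered 16895, 10495 and 9695 bp of the window in WT and 19612, 19895 and 20295 bp in KO, with no overlap. Over the gene body with no flank the groups overlapped, since a WT replicate 1 call (chr6:4745401-4761600) covers all of Peg10. Within the promoter stretch it covered 6800, 6200 and 6000 bp in WT and 8400, 9200 and 9200 bp in KO. Scaled H3K4me1 ChIP reads, shared out evenly along each call, stood at 41.1 ± 1.17 per kb of that stretch in WT and 75.1 ± 0.92 per kb in KO (SD, n = 3), a ratio of 1.83. Over the whole Peg10 window the same density was 37.6, 27.8 and 26.0 reads per kb in WT and 60.5, 58.9 and 64.9 reads per kb in KO, a ratio of 2.02. With the reads of every touching call taken whole, the difference in the Peg10 window was 18.2 in place of 31.0 reads per kb. The Sgce-side call that ended at chr6:4743000 held 114, 109 and 106 ChIP reads per kb in WT. In KO that stretch was part of calls that ran to −0.5, +8.5 and +15.3 kb, so its reads were spread into the window. The part of this in the density was not tested.

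H3K27ac at Peg10 separated the genotypes in reads while its called lengths overlapped. The calls covered 11695, 8695 and 14095 bp in WT and 11695, 16495 and 16095 bp in KO, with overlapping groups. The scaled reads stood at 24.5, 19.3 and 29.3 per kb of window in WT and at 33.7, 38.3 and 39.5 in KO, a ratio of means of 1.53 with no overlap. In the Sgce window, H3K27ac covered 33800, 35000 and 30807 bp in WT and 34400, 34658 and 34258 bp in KO, and the reads stood at 20.8 ± 1.29 and 24.4 ± 0.65 per kb of window (SD, n = 3). H3K4me1 at Sgce stood at 28.3 ± 1.13 and 32.7 ± 1.11 reads per kb of window (SD, n = 3), and here too the reads did not overlap while the lengths did. How often scaled reads separate over all gene windows was not computed, for these genes or for Ppp1r9a below.

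H3K4me3 and H3K27me3 overlapped between the genotypes at both genes. H3K4me3 covered 1604, 1916 and 913 bp in WT and 1868, 1488 and 2082 bp in KO, all of it near the shared promoter and so the same for Peg10 and Sgce. It fell on both sides of the pair of 5′ ends, and the peak on the Sgce side was called in WT replicates 1 and 2 and in all 3 KO libraries. H3K27me3 covered 5295, 3295 and 7095 bp of the Peg10 window in WT and 6695, 5495 and 6695 bp in KO. In the Sgce window it covered 19600, 14800 and 25451 bp in WT and 18000, 17000 and 22600 bp in KO. H3K27me3 was thus already called over this promoter in WT cells, where that of Nap1l5 had none.

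At Ppp1r9a, H3K9me3 was called in both genotypes. The calls covered 27000, 31400 and 24800 bp in WT and 32200, 28800 and 26000 bp in KO, with overlap. The scaled reads stood at 8.05, 8.55 and 7.75 per kb of window in WT and 9.29, 8.96 and 8.87 in KO, without overlap and higher in KO. The widest of its merged regions (chr6:4915201-4934600) held 1863, 1647 and 1531 ChIP reads in WT and 2185, 1729 and 1752 in KO. H3K27ac covered more of this window in KO, with 188684, 192084 and 185284 bp in WT and 205884, 200684 and 210884 bp in KO, and the scaled reads stood at 43.3 ± 0.27 and 52.1 ± 1.09 per kb of window (SD, n = 3). The groups of covered length overlapped when calls were limited to an FDR under 0.01. An intronic H3K27ac region (chr6:5082201-5086200) was called in 3 of 3 KO libraries, with 123, 137 and 144 ChIP reads, and in no WT library. It no longer met this rule at an FDR under 0.01 or with equal numbers of top-ranked calls.

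H3K4me1 covered 175345, 196745 and 188145 bp of the Ppp1r9a window in WT and 187084, 192084 and 192484 bp in KO. These lengths overlapped, while the scaled reads, at 48.2, 51.6 and 50.3 per kb of window in WT and 52.9, 53.3 and 53.2 in KO, did not. H3K4me3 covered 777, 765 and 850 bp of the window in WT and 1070, 902 and 1274 bp in KO, with no overlap. The KO replicate 1 length included a call of 262 bp far inside the gene (chr6:4982863-4983124). At the promoter the groups overlapped, with 296, 292 and 354 bp in WT and 310, 430 and 471 bp in KO in the merged region chr6:4902690-4903200. In the merged region chr6:4903360-4903937 the lengths were 481, 473 and 496 bp in WT and 498, 472 and 578 bp in KO. H3K27me3 was called in WT replicate 1 (1400 bp) and KO replicate 1 (861 bp) alone.

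**Figure D3:**
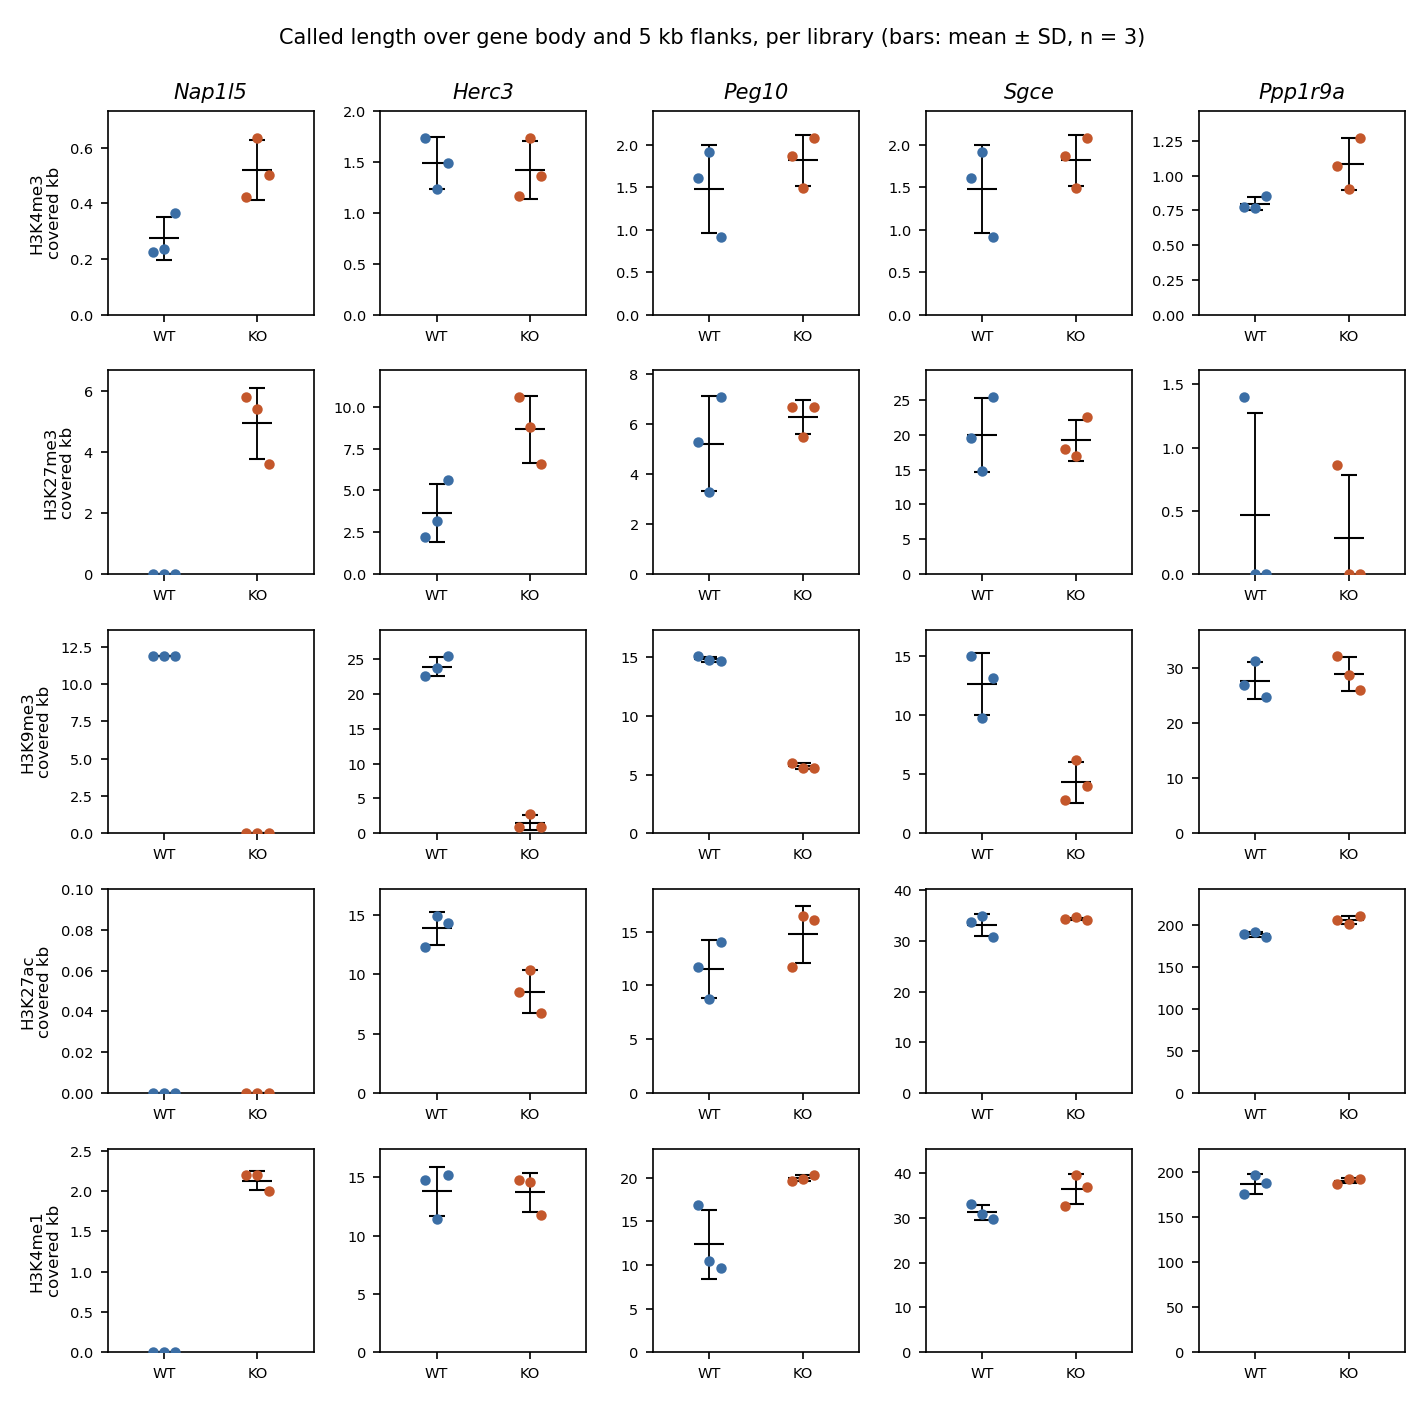
Called length in kb over the gene body and 5 kb flanks for each of the 5 genes (columns) and 5 modifications (rows), with 1 point per library and the mean ± SD of 3 libraries as black bars; each panel has its own scale from 0. H3K9me3 is lower in all KO libraries at Nap1l5, Herc3, Peg10 and Sgce and overlaps at Ppp1r9a.

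Of the 25 combinations of gene and modification, the called lengths of the 3 WT and 3 KO libraries did not overlap in 12, with 7 higher and 5 lower in KO. For H3K9me3, 4 of the 5 genes were lower in KO, where 11.4% of all windows with a call met the same rule. For H3K27me3 2 of 5 were higher (10.9% of all windows), for H3K4me1 2 of 5 were higher (11.7%) and for H3K4me3 2 of 5 were higher (24.5%). For H3K27ac 1 was higher (21.6%) and 1 was lower (8.20%). The genes were chosen on these contrasts, so nothing is read from their counts against the shares of all windows.

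Overlapping calls of the 6 libraries were also merged for each modification. Over the 5 windows, 11 merged H3K9me3 regions were found, of which 1 was called in 3 of 3 WT and 0 of 3 KO libraries (2.58% of all merged regions), the one at Nap1l5 (chr6:58896401-58922200). The Peg10 promoter stretch is not a second one by this count, because a WT replicate 3 call ran to +5.5 kb and so joined it to the block that all libraries share. The opposite rule, 3 of 3 KO and 0 of 3 WT libraries, was met by 1 of 6 H3K27me3 regions (1.80% of all), 1 of 20 H3K4me1 regions (1.49%) and 1 of 19 H3K27ac regions (1.35%). The H3K27me3 and H3K4me1 ones lay at Nap1l5 and the H3K27ac one in Ppp1r9a. None of the 8 merged H3K4me3 regions met either rule, and 5 of them were called in all 6 libraries.

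**Figure D4:**
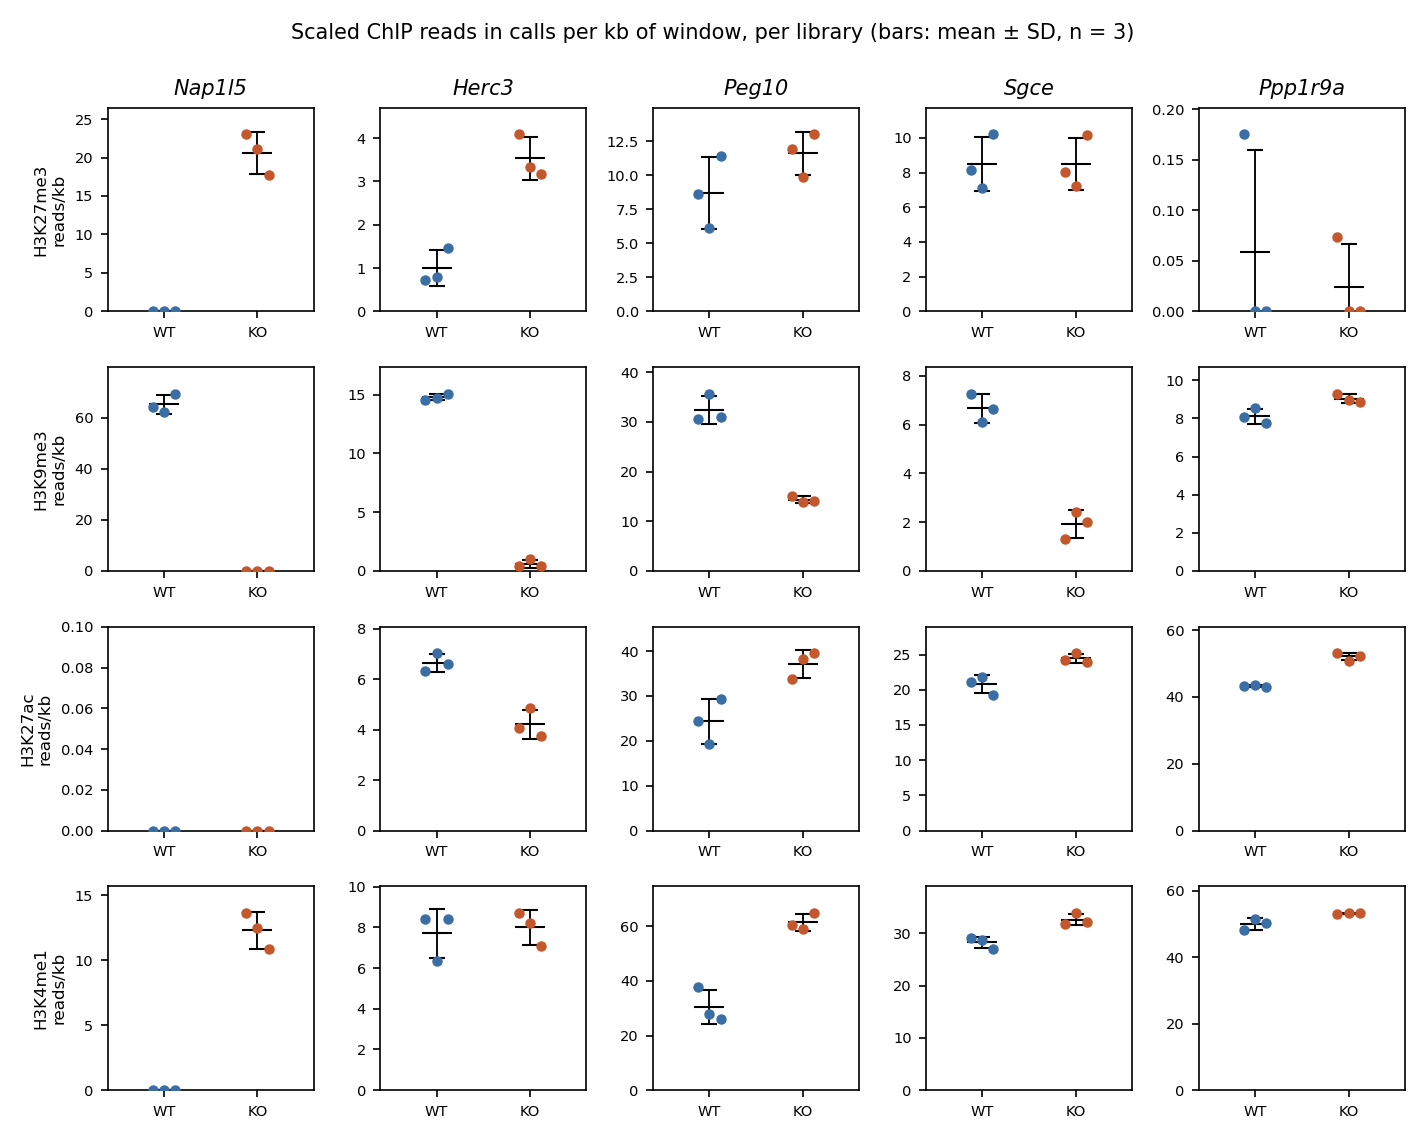
Scaled ChIP reads in calls per kb of window for each of the 5 genes (columns) and the 4 modifications with counts (rows), with 1 point per library and the mean ± SD of 3 libraries as black bars; each panel has its own scale from 0. H3K9me3 at Nap1l5 stands at 65.2 ± 3.74 reads per kb in WT and has no call in KO, and H3K4me1 at Peg10 stands at 30.5 in WT and 61.5 reads per kb in KO.

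Where a merged region was called in all 6 libraries, its ChIP reads were compared per covered kb, in a fit with edgeR across all such regions. Over all such regions, 0.439% passed a Benjamini-Hochberg adjusted p of 0.05 in either direction for H3K9me3 and 2.73% for H3K27me3. For H3K27ac, 1972 of 24039 regions (8.20%) passed as higher in KO and 1099 as lower. For H3K4me1, 1785 of 44625 (4.00%) passed as higher in KO and 732 as lower. The regions over the 5 genes are given by value alone, since the genes were selected on this contrast, and no call is read from the fit for the 5 H3K9me3, 2 H3K27me3, 13 H3K27ac and 11 H3K4me1 regions among them. The Peg10 H3K9me3 region had a log2 fold change of 0.20 (SE 0.10). In KO it comprised only the block inside Peg10, at 58.5, 57.2 and 58.1 scaled reads per covered kb, and in WT that block and the promoter stretch, at 46.9, 55.9 and 48.7. The H3K27me3 region over the Peg10 and Sgce promoter stood at 0.02 (SE 0.08). In Ppp1r9a, the H3K27ac regions chr6:4947001-5002200 and chr6:5004401-5064800 stood at 0.24 (SE 0.03) and 0.18 (SE 0.03), and the H3K4me1 region chr6:4925401-5002200 at 0.12 (SE 0.02). The Peg10 and Sgce promoter lay in a region of H3K27ac at 0.20 (SE 0.06) and in one of H3K4me1 at −0.02 (SE 0.06). The merged H3K4me1 region runs beyond the Peg10 window on the Sgce side. Within the window, the calls held 51.7, 61.4 and 62.2 scaled reads per called kb in WT and 71.6, 68.8 and 74.2 in KO. Called length was also higher there in KO. The density was affected by KO calls that carried reads from the Sgce side into the window, and this part was not tested. The fit says nothing of Nap1l5, whose H3K9me3, H3K27me3 and H3K4me1 regions were called in a single genotype.

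At the genes next to the 2 loci, the H3K9me3 called lengths of WT and KO overlapped. Of 14 neighbours of Peg10, 9 had an H3K9me3 call and in 0 of them did the groups separate. Of 10 neighbours of Nap1l5, 4 had a call and again 0 separated, where 11.4% of all windows with a call were lower in KO. With so few windows with a call, nothing is read from these H3K9me3 counts. The median differences of the 2 sets of neighbours were 0.15 and −0.07 kb, beside −0.30 kb over all windows with a call. In H3K27ac, Slc25a13, a mitochondrial aspartate-glutamate carrier, was covered over 105000, 93600 and 113400 bp in WT and 133600, 132600 and 125800 bp in KO. Dync1i1, a dynein intermediate chain, stood at 5000, 10000 and 13000 bp in WT and 25162, 19962 and 13800 bp in KO. Calcr, the calcitonin receptor, had 5921, 3321 and 5321 bp in WT and 321, 121 and 121 bp in KO. In H3K4me1, Asb4, an ankyrin repeat and SOCS box gene (36615, 40615 and 34815 bp in WT against 28215, 30600 and 29215 bp in KO) and Col1a2, a collagen chain (8144, 7344 and 7544 bp against 7144, 5144 and 5544 bp), were lower in KO. Pon2, a paraoxonase, was lower in H3K27me3, at 8400, 7800 and 8200 bp in WT and 7000, 5800 and 5400 bp in KO. In all, 2 of the 14 were higher and 1 lower in H3K27ac, 1 higher and 3 lower in H3K4me1, 0 higher and 3 lower in H3K27me3, and 0 higher and 2 lower in H3K4me3. Of the 14, 11 had a call in H3K27ac, 14 in H3K4me1, 11 in H3K27me3 and 9 in H3K4me3. Over all windows with a call, 21.6% were higher and 8.20% lower in H3K27ac, and 11.7% were higher in H3K4me1. The shares lower in H3K4me1, H3K27me3 and H3K4me3 were not computed, so nothing is read from these counts.

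Near Nap1l5, Abcg2, an efflux transporter, was covered by H3K27ac over 23600, 16000 and 26200 bp in WT and over 34400, 34600 and 34000 bp in KO. Ppm1k, a mitochondrial phosphatase, had H3K4me3 over 556, 632 and 812 bp in WT and 250, 0 and 227 bp in KO. Hpgds, a prostaglandin synthase, had H3K4me1 over 17308, 16908 and 18708 bp in WT and 10508, 0 and 9508 bp in KO. Of the 10 neighbours, 1 was higher and 2 were lower in each of H3K4me3, H3K27ac and H3K4me1, and 0 separated in H3K27me3. A call was present at 6 of the 10 in H3K4me3, 7 in H3K27ac, 9 in H3K4me1 and 7 in H3K27me3. Over all windows with a call, 24.5% were higher in H3K4me3, and the other shares are those given beside the neighbours of Peg10.

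Genes at germline imprinting regions elsewhere showed the same direction of H3K9me3 as Nap1l5 and Peg10. Of 18 such genes, 16 were lower in all KO than in all WT libraries and 0 higher, where 11.4% of all windows with a call were lower. Their median difference was −13.5 kb beside −0.30 kb over all windows. The list was chosen with earlier results of these data known. The Igf2r and Airn windows overlap, so the 18 genes are not 18 independent observations. The values are thus a description, and nothing is read from the count or the median of these 18 genes against all windows. The 2 whose groups overlapped were Impact, with 3600, 2800 and 2600 bp in WT and 2800, 0 and 0 bp in KO, and Rasgrf1, with 12800, 11200 and 7400 bp and 7800, 9600 and 9200 bp. Like Nap1l5, 5 of the 18 (Mest, H19, Mcts2, Nnat and Meg3, of which 3 were picked after their values were seen) had no H3K9me3 call in any KO library. Mest, an imprinted gene on the same chromosome, had 16400, 15400 and 17400 bp in WT. Unlike Nap1l5, Mest had H3K27ac over 0 bp in each WT library and 21600, 19000 and 18200 bp in KO, and H3K4me3 over 0 bp in WT and 2056, 2976 and 2523 bp in KO.

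H3K9me3 was also lower in KO at Grb10, a growth factor receptor adaptor (31800, 31000 and 35600 bp in WT against 11800, 7400 and 12600 bp), and at Gnas, a G protein α subunit (22000, 23481 and 25681 bp against 2800, 3600 and 3481 bp). Plagl1, a zinc finger gene, had 16200, 23200 and 22800 bp in WT and 1600, 0 and 0 bp in KO, and Igf2r, the IGF2 receptor, had 22200, 26400 and 22600 bp and 6200, 3200 and 3600 bp. Meg3, a long non-coding RNA gene, had 18600, 29600 and 25926 bp in WT and 0 bp in each KO library. Meg3 lies in a window of 1 Mb where input reads per kb were lower in KO (centred log2 KO/WT −0.67 in the H3K9me3 experiment), which the windows of the 5 genes were not (−0.08 to −0.01), and the part of this in its value was not tested. In the other marks of these 18 genes, 13 were higher and 0 lower in H3K4me3, 7 and 0 in H3K27me3, 8 and 3 in H3K27ac, and 10 and 2 in H3K4me1. The shares of all windows higher in KO were 24.5%, 10.9%, 21.6% and 11.7% in that order, with 8.20% lower in H3K27ac. These shares are of windows with a call, and nothing is read from the counts against them, as for H3K9me3. Of the 18 genes, 15 had an H3K27me3 call, and all had a call in the other marks. At Nap1l5 the same directions were seen for H3K4me3, H3K27me3 and H3K4me1, with no H3K27ac call.

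**Figure D5:**
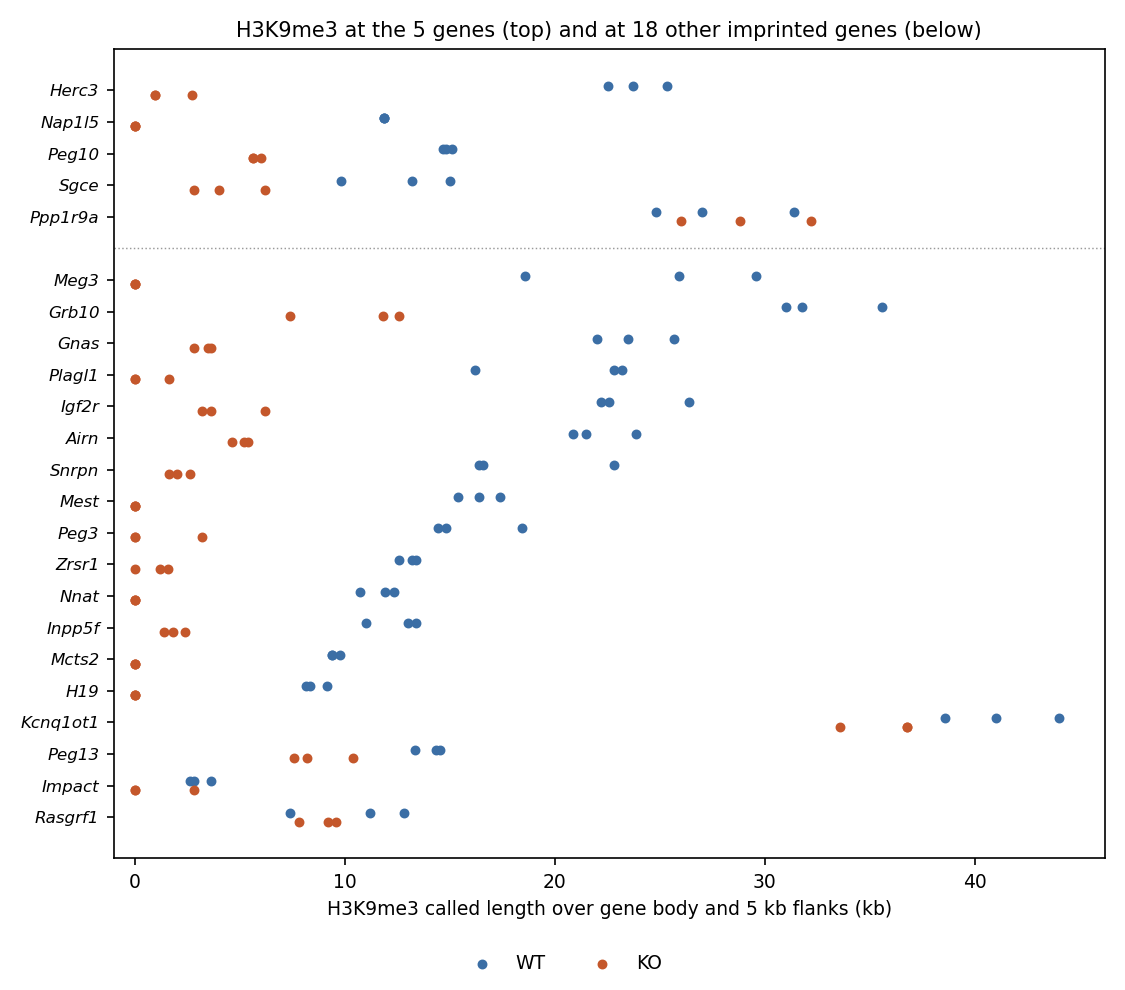
H3K9me3 called length in kb over the gene body and 5 kb flanks, with 1 point per library (WT blue, KO orange), for the 5 genes (top) and for 18 other imprinted genes (below the dotted line). Ppp1r9a, Rasgrf1 and Impact are the genes in which the WT and KO points overlap.

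The factors that keep methylation and H3K9me3 at imprinting regions were described in the same way. Of 9 such genes, 5 were higher and 0 lower in H3K4me3, where 24.5% of all windows with a call were higher. This list too was chosen with earlier results of these data known, so nothing is read from its counts against all windows. Trim28 had 9739, 9347 and 10412 bp of H3K4me3 in WT and 11414, 14280 and 13383 bp in KO, and Cbx5, which encodes HP1α, had 3025, 3872 and 4616 bp and 5910, 6061 and 7143 bp. In H3K9me3, 3 were higher and 1 lower in KO, where 11.4% of all windows were lower and the share higher was not computed. Setdb1 was higher, with 3400, 0 and 0 bp in WT and 5600, 5800 and 9800 bp in KO, as was Atrx, a chromatin remodeller (3400, 2800 and 2800 bp against 4600, 5000 and 4800 bp). Zfp445, a zinc finger gene that acts beside Zfp57, was lower, with 22472, 21600 and 17872 bp in WT and 15872, 16200 and 17600 bp in KO. Dppa3, which guards maternal methylation, was higher in H3K27me3, at 2591, 2000 and 7191 bp in WT and 8191, 7391 and 8591 bp in KO.

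Relatives of the 5 genes by sequence or origin were listed too. Of 14 relatives, 9 had an H3K9me3 call, and of these 0 were higher and 1 was lower in KO. Over all windows with a call 11.4% were lower, so nothing is read from this count. The lower one was Rtl1, the other retrotransposon-derived imprinted gene of the list, with 9608, 10600 and 9400 bp in WT and 5400, 4400 and 3400 bp in KO, and it lies beside Meg3 in the window of lower KO input. Among the others, Herc4 had H3K4me3 over 1862, 1968 and 1453 bp in WT and 2391, 2612 and 2682 bp in KO. Herc2 had H3K27ac over 19000, 23200 and 21200 bp and 16200, 18000 and 15000 bp, and Herc1 had H3K4me1 over 40975, 40575 and 39575 bp and 43375, 44775 and 42775 bp. Sgca, a sarcoglycan gene, had H3K4me3 over 0, 318 and 0 bp in WT and 426, 647 and 502 bp in KO.

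The genes whose WT profile was most like that of a member were found from the share of the window covered in each of the 5 modifications, averaged over 3 WT libraries, as the smallest Euclidean distance over these 5 shares. The nearest to Nap1l5 were Gm10718, Gm16503, Gm21028, Gm5773 and Gm8332, each 2.32 percentage points away, with 100% of the window under H3K9me3 and no other mark. In KO, H3K9me3 still covered these genes where Nap1l5 had none, from 8668 bp of 10435 bp at Gm8332 to all of 11672 bp at Gm10718. The nearest to Peg10 were Acot1, Ube2l6, Gimap5, Hdac2 and Rtl1, 19.4 to 21.5 percentage points away. Their mean H3K9me3 length in KO stood at 11149 bp of 12082 bp in WT for Acot1, 8827 of 9773 bp for Ube2l6, 10273 of 10540.0 bp for Gimap5, 20896 of 19430 bp for Hdac2 and 4400.0 of 9869 bp for Rtl1, beside 5733 of 14863 bp for Peg10.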

How the data were processed

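Per the labels, the authors used Trim Galore 0.6.6, Bowtie2 2.4.4, SAMtools 1.15, MACS2 2.2.7.1 and SICER 0.0.52 on GRCm38/mm10 (the methods name epic2, a SICER implementation, for all marks but H3K4me3, without naming H3K9me3). The labels name 1 antibody for H3K27ac and H3K4me1, and the methods another for H3K27ac. The deposited H3K4me3 peaks give fold enrichment over input as a ratio, −log10 p-values and q-values and a score. The other deposited lists give ChIP and input read counts, p-values with an FDR, the log2 fold change over input and a score. All calls were made by the authors per library at an FDR or q-value under 0.05, with 1 input per genotype and experiment.

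Called bp per gene window (GENCODE M21, 5 kb flanks) were summed per library with Python 3.11.15, numpy 2.4.6 and pandas 2.3.3. Reads of a call were shared evenly over its length and scaled by TMM-normalized totals. Regions merged from 1 bp of overlap and called in all 6 libraries were fitted with edgeR 4.0.16 (R 4.3.3, quasi-likelihood, TMM, covered length as offset, Benjamini-Hochberg adjusted p under 0.05), tested on simulated data. SE was approximated by dividing the log2 fold change by √F. An exact permutation test of 3 against 3 cannot go below 0.1, and none was used. Members and lists were chosen with earlier results of these data known. Genes named from lists were those not overlapping in at least 1 mark, up to 6 per list by difference in called bp (some are not reported here), and the 5 nearest WT profiles were named for Nap1l5 and Peg10. Alternatives were other flanks, thresholds, equal numbers of calls, merging, scaling, DESeq2 1.42.0, the replicate block and leaving out each library. Reads are not independent molecules.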

Additional observations from a re-analysis of the deposited data

How the results depend on the processing

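KO minus WT called length kept its direction in H3K9me3 at Nap1l5, Herc3, Peg10 and Sgce, and in H3K27me3 at Nap1l5 and Herc3, under all flanks, thresholds and left-out libraries tried. The H3K9me3 count of genes with non-overlapping called length was 4, and 3 with no flank. The H3K4me3 count fell from 2 to 1 with no flank and to 1 when a call needed 300 bp inside the window, and the H3K4me1 count fell from 2 to 1 with no flank, where Peg10 overlapped. The H3K27ac count fell from 2 to 0 at an FDR under 0.01 and to 1 with equal numbers of top-ranked calls. Without 1 library at a time, these counts were 2 to 2 for H3K4me3, 4 to 4 for H3K9me3 and 2 to 3 for each of the others. Regions restricted to a genotype went from 1 to 2 for H3K9me3 with top-ranked calls, and from 1 to 0 for H3K27ac both at an FDR under 0.01 and with top-ranked calls. Without 1 library they were 0 to 1 for H3K4me3 (1 without KO replicate 2) and 1 to 2 for the other modifications, with a second one without KO replicate 2 (H3K27me3), without WT replicate 1 or 3 (H3K9me3), without KO replicate 1 or 2 (H3K27ac) and without WT replicate 2 or 3 or KO replicate 1 (H3K4me1).

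In edgeR, regions passing numbered 120 for H3K9me3, 279 in DESeq2 and 451 among regions with covered lengths within 0.8 and no offset, a smaller set, where H3K4me1 went from 2517 to 4758. Without 1 library the counts were 266 to 497 for H3K27me3 (514 with all), 38 to 108 for H3K9me3, 2201 to 2558 for H3K27ac (3071 with all) and 1659 to 1831 for H3K4me1. Counts moved by over 1.5 times for H3K27me3 without WT replicate 2 (290) or 3 (319) or KO replicate 1 (266) or 2 (318), for H3K9me3 without WT replicate 1 (41), 2 (43) or 3 (38) or KO replicate 1 (62) or 3 (57), and for H3K4me1 without KO replicate 1 (1659). Without TMM the split of higher and lower regions went from 1972 and 1099 to 1193 and 2227 for H3K27ac (median of all regions −0.07), and from 1785 and 732 to 1307 and 1179 for H3K4me1. With covered lengths within 0.8 and no offset, the log2 fold change of an H3K4me1 region of Sgce (4673801) reversed from −0.01 to 0.14, and the cause was not tested. Correlations between same-numbered WT and KO libraries lay between −0.02 and 0.03, so no pairing by number was seen. Counting noise can hide a shared batch, so these values do not show whether same-numbered libraries were handled together. With the replicate block 479 H3K27me3, 90 H3K9me3, 2842 H3K27ac and 2122 H3K4me1 regions passed. Depth limits all of these values, since the lists hold counts only where a region was called.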
